A study of Mus musculus with 8 samples.

Results

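The cerebellar lineage genes Atoh1, Ptf1a, Skor2, Car8, Barhl1, Zic1 and Calb1 were followed through RNA-seq of embryonic mouse brain. The 7 genes were chosen by name, as genes of the granule and Purkinje cell lineages, with earlier results of these data known. Each matched 1 of the 34866 rows of the deposited table of read counts. All 7 passed the filter on low counts, which kept 17357 genes. The mutants carried 2 mutant alleles of Sap130 and 2 of Pcdha9 (m/m at both genes), a genotype that the series uses as a mouse model of hypoplastic left heart syndrome (HLHS). The controls were littermates that carried 1 mutant allele of each gene (+/m at both), so no brain in the set was wild type. The 3 mutants were embryo 260-1 at E13.5 and embryos 195-3 and 303-2 at E14.5. The 5 controls were embryos 260-2 and 260-3 at E13.5 and embryos 195-2, 195-6 and 303-3 at E14.5. The first number of each name is read here as the litter, which the labels do not define, and the labels state no sex and no pooling.

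The cerebellum forms from the dorsal part of the most anterior hindbrain segment, which lies behind the isthmus and in front of the segments that express Hox genes. Its 2 germinal zones are marked by different basic helix-loop-helix transcription factors. Progenitors in the upper rhombic lip express Atoh1 and give rise to granule cells and other glutamatergic neurons, and progenitors in the ventricular zone express Ptf1a and give rise to Purkinje cells and GABAergic interneurons. At the stages sampled, Purkinje cells have mostly left the cell cycle and granule cell precursors are beginning to cover the cerebellar surface. None of the 7 genes is restricted to the cerebellum. Atoh1 and Ptf1a are also active in the dorsal caudal hindbrain and spinal cord, Barhl1 in the midbrain and posterior hypothalamus, Zic1 in dorsal and medial forebrain regions, and Calb1 in neurons of many regions.

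RefSeq promoter windows, from 250 bases before to 50 bases after the transcription start on GRCm38.p6, were found for 4 of the 7 genes, Atoh1, Ptf1a, Barhl1 and Zic1. They are shown because Atoh1 and Barhl1 parted in some libraries and Ptf1a followed neither. Capitals mark every E-box CANNTG, the 6-base core bound by basic helix-loop-helix factors, which reads the same on both strands. Barhl1 has a further annotated start downstream that is not shown.
Atoh1, chr6:64728875-64729174, plus strand: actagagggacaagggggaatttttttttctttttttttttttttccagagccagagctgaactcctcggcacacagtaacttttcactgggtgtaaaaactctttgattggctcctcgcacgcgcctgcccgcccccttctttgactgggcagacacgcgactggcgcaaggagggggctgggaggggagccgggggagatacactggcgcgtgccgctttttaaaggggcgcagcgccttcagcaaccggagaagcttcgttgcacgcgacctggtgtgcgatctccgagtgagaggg
Ptf1a, chr2:19445413-19445712, plus strand: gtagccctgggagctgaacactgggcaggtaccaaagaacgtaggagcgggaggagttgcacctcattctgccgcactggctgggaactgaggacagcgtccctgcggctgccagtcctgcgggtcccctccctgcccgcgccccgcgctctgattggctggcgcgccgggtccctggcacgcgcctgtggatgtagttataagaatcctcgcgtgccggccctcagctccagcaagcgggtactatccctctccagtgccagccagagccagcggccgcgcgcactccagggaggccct
Barhl1, chr2:28916619-28916918, minus strand: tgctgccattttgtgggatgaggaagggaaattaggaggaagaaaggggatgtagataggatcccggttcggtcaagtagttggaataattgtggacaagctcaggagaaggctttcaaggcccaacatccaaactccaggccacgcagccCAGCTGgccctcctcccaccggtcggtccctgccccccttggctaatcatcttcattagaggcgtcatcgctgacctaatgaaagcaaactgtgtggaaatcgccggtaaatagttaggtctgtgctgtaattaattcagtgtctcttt
Zic1, chr9:91365719-91366018, minus strand: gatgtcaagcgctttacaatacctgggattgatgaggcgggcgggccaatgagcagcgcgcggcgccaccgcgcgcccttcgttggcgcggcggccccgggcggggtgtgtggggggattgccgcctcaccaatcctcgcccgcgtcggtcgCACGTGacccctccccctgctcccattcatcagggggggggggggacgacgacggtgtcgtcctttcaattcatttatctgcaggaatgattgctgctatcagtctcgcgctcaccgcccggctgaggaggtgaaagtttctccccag
The Atoh1 and Ptf1a windows held no CANNTG, which 72.3% of all 32851 windows of this length contained. The Barhl1 window held 1 E-box, CAGCTG at position -99, and that core was present in 16.3% of all windows. The Zic1 window held 1 E-box, CACGTG at position -98. CAGATG, or CATCTG on the other strand, was present in 17.2% of all windows and in none of these 4. TTTCCC, which with an E-box makes up the bipartite site bound by Ptf1a complexes, was searched on both strands, occurred once, in the Barhl1 window, and was present in 25.2% of all windows. A match or its absence describes these letters only.

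Library totals lay between 36438282 and 47838448 counts. Sap130, whose mutant alleles define the groups, was at 32.6 to 35.9 CPM in mutants, against 46.8 to 52.1 CPM in controls (CPM, the read count scaled to the library size after normalisation). Of 7 general neural markers, from the progenitor gene Sox2 to the neuronal gene Tubb3, every gene was detected in every library, and their summed level was 5594 to 6316 CPM in mutants and 5959 to 6782 CPM in controls. In the edgeR test used below, Elavl3 and Dcx, 2 of these 7, were called lower in mutants, where 9.74% of all tested genes were. Some libraries stood apart. In mutant 260-1 and control 195-6 the 15 listed Hox genes had few or no reads. Their summed levels were 0.420 and 2.83 CPM, against 203.9 to 451 CPM in the other 6 libraries, called below the libraries with Hox reads. Of the 15, 6 were at 0 in mutant 260-1 and 1 in control 195-6. The summed level of 12 telencephalon genes reached 1460 CPM in mutant 260-1, 263 CPM for mutant 195-3 and 715 CPM for mutant 303-2, against 1176 to 1452 CPM in controls. The highest control value, 1452 CPM, was that of control 195-6. In bulk RNA of this kind, fewer cells of a type and less RNA per cell cannot be told apart.

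Compared per kilobase of the longest annotated transcript, the members spanned a wide range of levels. Zic1 was highest, at 52.3 ± 6.39 CPM per kb (SD, n = 8 libraries), followed by Barhl1 at 10.9 ± 2.30 and Calb1 at 4.95 ± 0.714 CPM per kb. Skor2, Car8 and Atoh1 were at 2.59 ± 1.22, 2.10 ± 0.893 and 1.12 ± 0.497 CPM per kb, and Ptf1a was lowest at 0.221 ± 0.0818 CPM per kb. The ranges over libraries of Zic1, Barhl1 and Calb1 did not touch, nor did those of Atoh1 and Ptf1a. Calb1 overlapped Skor2, Skor2 overlapped Car8 and Car8 overlapped Atoh1. Calb1 was above Skor2 in 7 of 8 libraries, Skor2 above Car8 in 5 of 8 and Car8 above Atoh1 in 7 of 8. Atoh1 rested on 47 to 178 counts per library and Ptf1a on 7 to 22, while Zic1 rested on at least 9985.

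**Figure D1:**
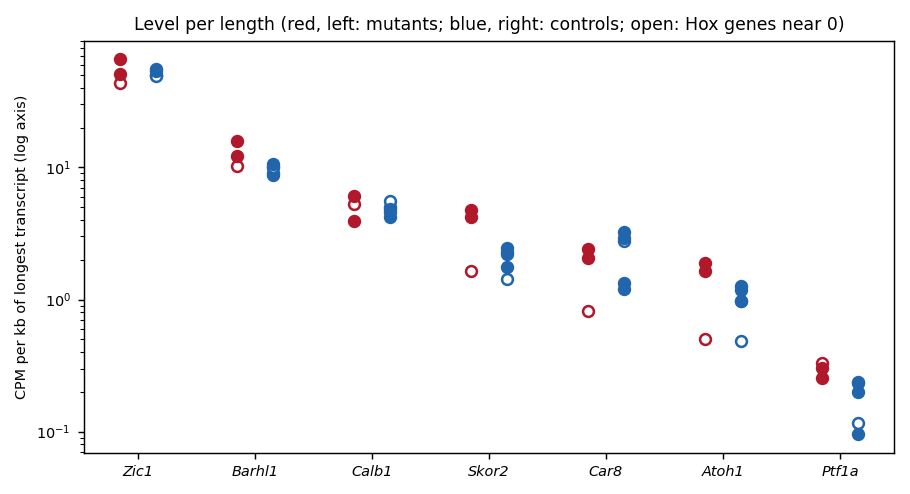
Level of each member in CPM per kilobase of the longest transcript (log axis), genes in order of mean level, with mutants as red symbols on the left and controls as blue symbols on the right. Open symbols are mutant 260-1 and control 195-6, in which Hox genes were near 0. Zic1 lies between 43.7 and 65.6 and Ptf1a between 0.0959 and 0.330 CPM per kb.

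Among the genes of the granule lineage, Barhl1 was higher in mutants, while Atoh1 and Zic1 did not pass the test. Atoh1 (ENSMUSG00000073043.5, GRCm38 chromosome 6, 64729125 to 64731245, plus strand, a single-exon coding gene) specifies the rhombic lip progenitors. Mutant 260-1 had 1.06 CPM, mutant 195-3 had 4.02 CPM and mutant 303-2 had 3.49 CPM, while control 260-2 had 2.08, control 260-3 had 2.67, control 195-2 had 2.07, control 195-6 had 1.03 and control 303-3 had 2.52 CPM. Both E14.5 mutants lay above every control, and mutant 260-1 lay beside control 195-6 at the bottom. The means were 2.86 ± 1.58 CPM in mutants (SD, n = 3) and 2.07 ± 0.641 CPM in controls (n = 5), a log2 change of 0.37 with an SE of 0.46 (edgeR quasi-likelihood test with stage in the model, adjusted p = 0.600). That change was 0.06 without mutant 195-3 or without control 195-6, 0.23 without mutant 303-2 and 1.02 without mutant 260-1, with no call in any of these fits.

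Barhl1 (ENSMUSG00000026805.14, chromosome 2, 28907679 to 28916668, minus strand, coding) encodes a homeodomain factor of migrating granule precursors and other neurons. The E13.5 mutant 260-1 reached 37.6 CPM and the E14.5 mutants reached 58.4 (195-3) and 44.9 CPM (303-2), against 32.1 (260-2) and 33.1 CPM (260-3) for the E13.5 controls and 37.2 (195-2), 37.1 (195-6) and 38.6 CPM (303-3) for the E14.5 controls. Each mutant lay above the controls of its own litter, and the groups overlapped across stages because mutant 260-1 lay below control 303-3. The means were 47.0 ± 10.6 CPM in mutants and 35.6 ± 2.85 CPM in controls, a log2 change of 0.37 (SE 0.09, adjusted p = 0.0252). The change fell to 0.21 without mutant 195-3 (adjusted p = 0.0560), and the call was also lost without controls 260-2 (0.0581), 195-2 (0.0812) or 303-3 (0.0686). It was likewise lost with upper quartile scaling (0.0569) and without the stage covariate (0.0861).

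Zic1 (ENSMUSG00000032368.14, chromosome 9, 91358058 to 91365810, minus strand, coding) encodes a zinc finger factor that holds granule precursors in an immature state. Mutant 260-1 had 245 CPM, mutant 195-3 had 368 CPM and mutant 303-2 had 283 CPM, while control 260-2 had 310.4, control 260-3 had 279.8, control 195-2 had 282, control 195-6 had 275 and control 303-3 had 303 CPM. The mutants spanned the whole control range, with 195-3 above it and 260-1 below it. The means were 299 ± 62.7 CPM in mutants and 290.1 ± 15.6 CPM in controls, with a log2 change of 0.03 (SE 0.11, adjusted p = 0.887).

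Among the genes of the Purkinje lineage, Car8 was lower in mutants, and Ptf1a, Skor2 and Calb1 did not pass the test over all 8 libraries. Ptf1a (ENSMUSG00000026735.2, chromosome 2, 19445663 to 19447501, plus strand, coding) is required for the GABAergic neurons of the cerebellum. The E13.5 mutant 260-1 reached 0.497 CPM and the E14.5 mutants reached 0.384 (195-3) and 0.454 CPM (303-2), against 0.301 (260-2) and 0.356 CPM (260-3) for the E13.5 controls and 0.145 (195-2), 0.175 (195-6) and 0.353 CPM (303-3) for the E14.5 controls. The 3 mutants lay above all 5 controls, a separation that 19.8% of all tested genes showed in one direction or the other. The counts behind it were 22, 17 and 16 in the mutants and 12, 16, 7, 8 and 15 in the controls, and the 95% Poisson interval of mutant 303-2 ran from 0.260 to 0.737 CPM, which covers 3 of the 5 control values (Poisson intervals here cover counting error only). The log2 change was 0.78 (SE 0.32, adjusted p = 0.108).

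Skor2 (ENSMUSG00000091519.1, chromosome 18, 76856405 to 76900342, plus strand, coding) encodes a nuclear corepressor needed for Purkinje cell differentiation. Mutant 260-1 had 5.15 CPM, mutant 195-3 had 13.2 CPM and mutant 303-2 had 14.96 CPM, while control 260-2 had 7.14, control 260-3 had 7.65, control 195-2 had 5.49, control 195-6 had 4.53 and control 303-3 had 6.90 CPM. The 2 E14.5 mutants stood well above all controls, and mutant 260-1 was below 4 of the 5. The means were 11.1 ± 5.22 CPM in mutants and 6.34 ± 1.29 CPM in controls, a log2 change of 0.75 with an SE of 0.35 (adjusted p = 0.163; 0.0475 by DESeq2). Without mutant 260-1 the log2 change was 1.32 and passed the test (adjusted p = 0.00231). No E13.5 mutant is then left, so this change rests on the E14.5 libraries alone.

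Car8 (ENSMUSG00000041261.9, chromosome 4, 8143362 to 8239041, minus strand, coding) encodes a carbonic anhydrase-related protein that binds the inositol trisphosphate receptor Itpr1 in Purkinje cells. The E13.5 mutant 260-1 reached 3.16 CPM and the E14.5 mutants reached 9.30 (195-3) and 8.01 CPM (303-2), against 5.12 (260-2) and 4.60 CPM (260-3) for the E13.5 controls and 12.4 (195-2), 10.6 (195-6) and 11.3 CPM (303-3) for the E14.5 controls. Each mutant lay below every control of its stage, and the 2 E14.5 mutants lay above both E13.5 controls. With stage in the model the log2 change was -0.48 (SE 0.12, adjusted p = 0.0220), and without stage it was -0.38 (adjusted p = 0.598). The call was also lost without mutant 260-1 (0.0869), mutant 303-2 (0.0825), control 260-2 (0.0557), control 195-2 (0.0785) or control 303-3 (0.0547).

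Calb1 (ENSMUSG00000028222.2, chromosome 4, 15881264 to 15908064, plus strand, coding) encodes calbindin, a calcium-binding protein of Purkinje cells and many other neurons. Mutant 260-1 had 22.4 CPM, mutant 195-3 had 25.7 CPM and mutant 303-2 had 16.5 CPM, while control 260-2 had 17.8, control 260-3 had 19.4, control 195-2 had 21.1, control 195-6 had 23.6 and control 303-3 had 20.4 CPM. The control values lay between those of mutants 303-2 and 195-3. The log2 change was 0.07 (SE 0.14, adjusted p = 0.743). Thus 2 of the 7 genes passed, against 20.6% of all tested genes. Of these, 1 was higher and 1 lower, where 10.9% of all tested genes were called higher and 9.74% lower. The median log2 change of the 7 was 0.37, and that of all tested genes -0.00052.

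**Figure D2:**
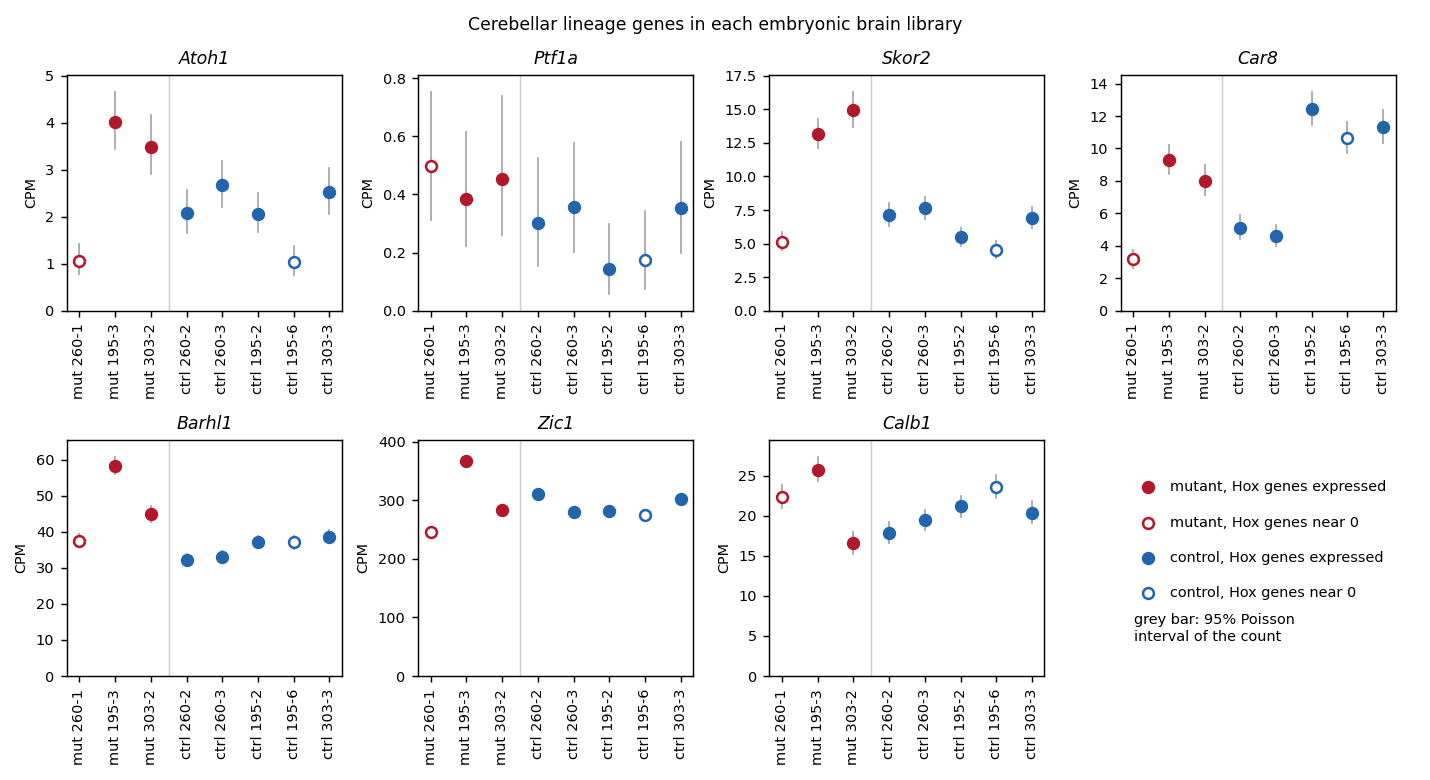
CPM of each of the 7 genes in each library, mutants (red) left of controls (blue), with the 95% Poisson interval of the count as a grey bar and open symbols for mutant 260-1 and control 195-6. Mutants 195-3 and 303-2 stand above the controls for Atoh1 (4.02 and 3.49 CPM) and Skor2 (13.2 and 14.96 CPM), and the Car8 values separate by stage.

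The libraries with few or no Hox reads still held reads of all 7 genes, and the members differed in how low they were there. Atoh1 was at 1.06 CPM in mutant 260-1 and 1.03 CPM in control 195-6, with 47 counts in each. It was at 2.07 to 4.02 CPM in the libraries with Hox reads. The 95% Poisson intervals of mutant 260-1 and control 195-6 ended at 1.41 and 1.37 CPM, below the lowest of the other 6 values. Skor2 was also lowest in these libraries, at 5.15 and 4.53 CPM, close below the 5.49 CPM of control 195-2. Zic1 had its 2 lowest values there as well, with a margin in control 195-6 of 275 against 279.8 CPM in the next library. For Atoh1, Skor2 and Zic1, 3 of the 7 genes, the 2 lowest of 8 values thus fell in these libraries, and 3.53% of all tested genes showed that order. It was also seen in 2 of 18 further rhombic lip and granule genes and 1 of 22 further Purkinje and GABAergic genes. All 15 Hox genes showed it too, which follows from how the libraries were identified. The 7 genes were chosen with these 2 libraries already known, so their count is a description and not a test.

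The 2 lowest values of Barhl1, Calb1, Car8 and Ptf1a did not both fall in these libraries, although Car8 was lowest in mutant 260-1, which is an E13.5 brain. Barhl1 was at 37.1 CPM in control 195-6 and 37.2 CPM in its litter mate 195-2, while Atoh1 was 2.01 times as high in control 195-2 as in control 195-6. Per kilobase, the ratio of Barhl1 to Atoh1 was 20.5 in mutant 260-1 and 20.9 in control 195-6, against 7.17 to 10.4 in the other 6 libraries. Ptf1a gave no such split, since mutant 260-1 held its highest value and control 195-6 its lowest but one. In the other 6 libraries, mutants 195-3 and 303-2 had the highest Hox sums, at 451 and 326 CPM, and the highest levels of Atoh1, Skor2, Barhl1 and Ptf1a.

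**Figure D3:**
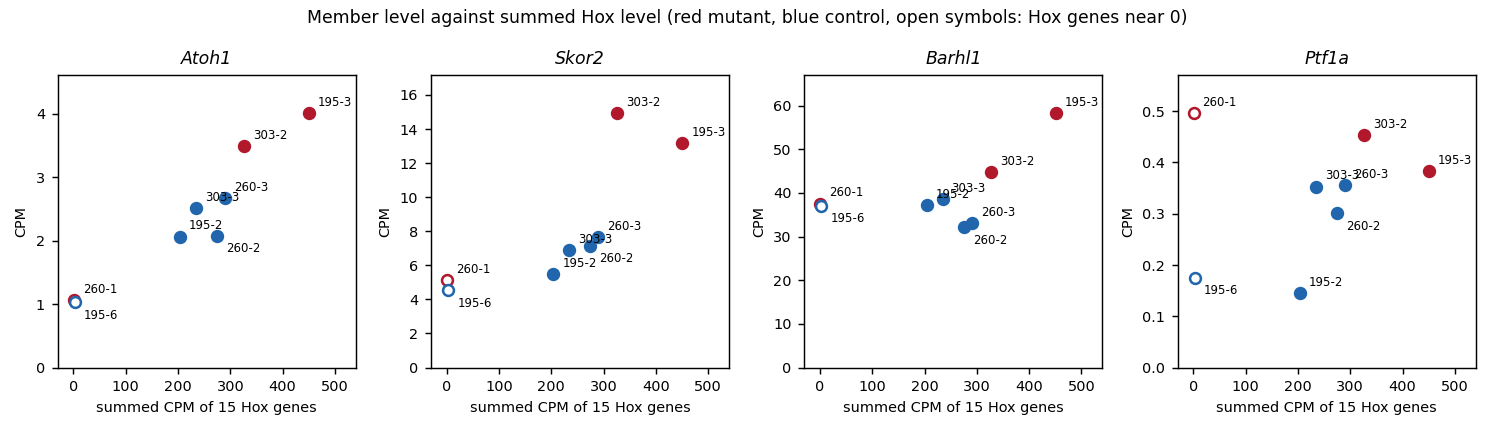
CPM of Atoh1, Skor2, Barhl1 and Ptf1a against the summed CPM of 15 Hox genes, 1 point per library, mutants red and controls blue, open symbols for the libraries with Hox genes near 0. Atoh1 is near 1 CPM in both open symbols, while Barhl1 is near 37 CPM in both, within the control range.

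The comparison of mutants with controls was repeated without mutant 260-1 and control 195-6, which left 2 mutants and 4 controls. With stage in the model and no E13.5 mutant left, each log2 change rests on mutants 195-3 and 303-2 against controls 195-2 and 303-3. The E13.5 controls add only to the estimate of spread. Skor2 was then higher in mutants, by a log2 change of 1.18 (SE 0.17, adjusted p = 0.00486). The log2 change was 0.72 for Atoh1 (SE 0.23, adjusted p = 0.0703), 0.45 for Barhl1 (SE 0.13, 0.0564) and 0.16 for Zic1 (SE 0.13, 0.450). It was 0.76 for Ptf1a (SE 0.49, adjusted p = 0.329), -0.46 for Car8 (SE 0.16, 0.0860) and 0.03 for Calb1 (SE 0.19, 0.937), so these 6 genes did not pass. In this comparison 11.3% of the 17454 genes tested were called, 5.64% higher and 5.65% lower. Atoh1, Skor2, Barhl1 and Ptf1a were higher in both mutants than in all 4 controls, an order that 18% of genes had. Both of these mutants also had the low telencephalon sums of 263 and 715 CPM given above. Their Hox sums, 451 and 326 CPM, were above the 203.9 to 289.9 CPM of the 4 controls, so this set does not balance Hox levels. The part of either difference in the result was not tested. In the 5 E14.5 libraries, which keep control 195-6, Skor2 had a log2 change of 1.32 (adjusted p = 0.0120) and Atoh1 one of 1.01 (0.102). Leaving out mutant 260-1 alone, as above, makes the same contrast of mutants with controls, so these are not separate results.

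**Figure D4:**
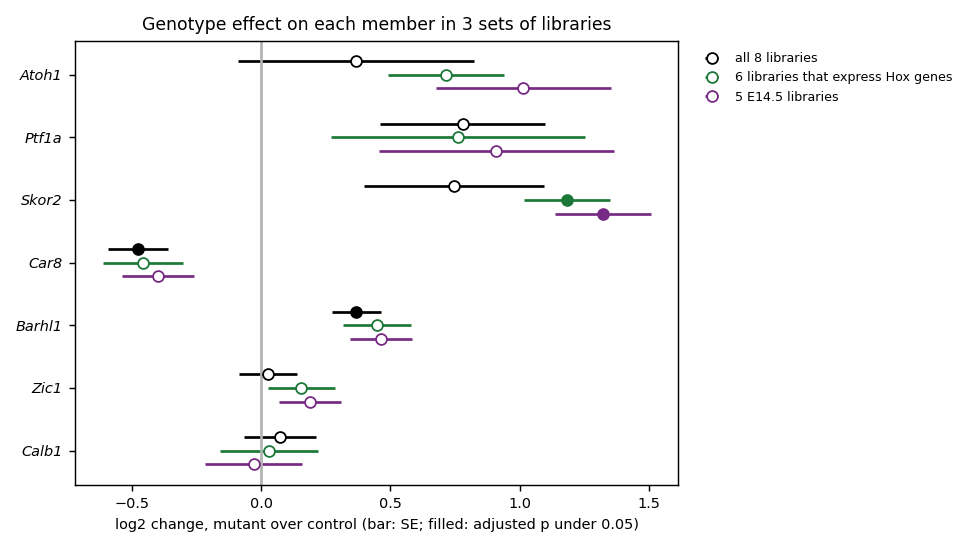
Log2 change of each gene in mutants over controls, with its SE, in all 8 libraries (black), in the 6 libraries with Hox reads (green) and in the 5 E14.5 libraries (purple). Filled symbols passed the threshold of adjusted p. Skor2 moves to 1.18 and 1.32 in the smaller sets, while Barhl1 and Car8 keep their direction but lose the call.

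Within litters the direction depended on the gene. Car8 was lower in the mutant of each litter, with log2 differences of -0.61 for litter 260, -0.31 for 195 and -0.50 for 303. Barhl1 was higher in each, by 0.21, 0.65 and 0.22, and so was Ptf1a, by 0.54, 1.06 and 0.33, on 7 to 22 counts a library. The share of all genes with the same sign in each litter is not given here, and the litter numbers were not taken as pairing the samples. These signs are therefore descriptive only. Atoh1 and Skor2 differed in sign between litters, Atoh1 with differences of -1.12 (litter 260), 1.43 (195) and 0.46 (303), Skor2 with -0.52 (260), 1.39 (195) and 1.11 (303). Zic1 and Calb1 also changed sign between litters. Litter 260 holds the mutant, and litter 195 the control, in which Hox genes were near 0. Litter 303, in which both libraries hold Hox reads, had Skor2 at 14.96 CPM in the mutant and 6.90 CPM in the control. Atoh1 was there at 3.49 CPM in the mutant and 2.52 CPM in the control.

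A test of whether the mutant effect differed between stages rested on 1 mutant at E13.5, which is the library 260-1. Of the 7 genes, 3 had an unadjusted p under 0.05 in edgeR, as did 1622 of the 17357 genes tested. None of the 7 passed after adjustment, where 0.104% of all genes did (0.023% with a higher effect at E14.5 and 0.0807% with a lower one). The difference of the effect at E14.5 from that at E13.5 was 1.84 on the log2 scale for Skor2 (SE 0.31, adjusted p = 0.0855), 2.17 for Atoh1 (SE 0.58, 0.279) and 0.45 for Zic1 (SE 0.19, 0.514). DESeq2 called 2 of the 7, Skor2 (adjusted p = 3.69e-05) and Atoh1 (0.0411), and 1.39% of all genes. Stage and the lack of Hox reads in mutant 260-1 cannot be told apart in this test.

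Between stages Car8 was the only one of the 7 genes called by edgeR. It was at 8.01 to 12.4 CPM in the 5 E14.5 brains and 3.16 to 5.12 CPM in the 3 E13.5 brains, with no overlap. The log2 difference of E14.5 over E13.5, with genotype in the model, was 1.31 (SE 0.12, adjusted p = 0.0150), where 3.26% of all genes were called, 2.24% as higher at E14.5. It lay between 1.23 and 1.36 when single libraries were left out, and missed the threshold without controls 260-3 (0.0887), 195-2 (0.122) or 303-3 (0.125). Calb1, the other mature Purkinje marker, was at 21.5 ± 3.47 CPM at E14.5 and 19.9 ± 2.30 CPM at E13.5 (log2 0.11, SE 0.14, adjusted p = 0.672). Barhl1 had a log2 difference of 0.30 (SE 0.10, adjusted p = 0.101). DESeq2, which called 13.6% of all genes for stage, gave it an adjusted p of 0.0452. The E13.5 brains are 1 litter and the E14.5 brains are 2, so stage and litter cannot be told apart.

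Related genes were described through lists that, like the members, were drawn up with earlier results of these data known. Of all tested genes, 10.9% were called higher and 9.74% lower in mutants. Of 18 further genes of the rhombic lip and granule lineage, 8 rose in mutants and the other 10 did not pass, with a median log2 change of 0.21. DESeq2 called 8 of the 18 higher and 1, Cntn2, lower, and 25.1% of all genes in either direction. Cntn2 was at 274 ± 101 CPM in mutants against 429 ± 10.5 CPM in controls (adjusted p = 0.0914 in edgeR). The 4 of smallest p in edgeR are transcription factors. Lhx9 was at 143 ± 10.6 CPM in mutants against 90.9 ± 8.43 CPM in controls, and Nhlh2 at 90.4 ± 5.38 CPM in mutants against 53.2 ± 10.1 CPM in controls. Barhl2 was at 29.3 ± 2.36 CPM in mutants against 16.3 ± 2.78 CPM in controls, and Nhlh1 at 29.96 ± 9.92 CPM in mutants against 19.7 ± 7.16 CPM in controls (adjusted p between 0.00291 and 0.00925 for the 4). Barhl2, the paralog of Barhl1, was at 30.6 CPM in mutant 260-1 and 18.3 CPM in control 195-6. It was thus not low in the libraries with few or no Hox reads. Without those 2 libraries 8 of the 18 were again called higher, where 5.64% of all genes were, and the median of the 18 was 0.44.

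Of 22 further genes of the Purkinje and GABAergic lineages, 8 rose and 2 fell, where 10.9% of all tested genes were called higher and 9.74% lower. The other 12 did not pass, and the median of the 22 was -0.05. DESeq2 called 8 of the 22 higher and 6 lower, and 25.1% of all genes in either direction. Itpr1, the receptor that the Car8 protein binds, fell by 0.70 on the log2 scale (SE 0.12, adjusted p = 0.00696), at 24.7 ± 2.09 CPM in mutants against 40.1 ± 6.60 CPM in controls. Prdm13, a zinc finger gene that acts with Ptf1a in the spinal cord and cerebellar ventricular zone, rose by 0.89 (SE 0.18, adjusted p = 0.00998), at 2.98 ± 0.441 CPM in mutants against 1.65 ± 0.331 CPM in controls. The homeobox genes Gsx1 and Lhx5, expressed in GABAergic progenitors and young neurons of several regions, rose by 0.82 (SE 0.17) and 0.74 (SE 0.15). Without the 2 libraries 7 of the 22 were called higher and 3 lower, with a median of 0.11, where 5.64% of all genes were called higher and 5.65% lower. Pax2, which marks cerebellar GABAergic interneuron precursors and was chosen after its values were seen, was at 1.27 CPM in mutant 260-1 and 3.28 CPM in control 195-6, against 16.7 to 29.05 CPM in the other 6 libraries. It was the only gene of this list whose 2 lowest values fell in those libraries, and Cbln1 and Meis1 were the only ones of the rhombic lip list.

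Of 12 genes of the isthmus and midbrain, which border the cerebellar primordium, 7 rose in mutants, where 10.9% of all tested genes were called higher. The other 5 did not pass the threshold, and the median of the 12 was 0.68. En2 was at 57.9 ± 3.01 CPM in mutants against 30.6 ± 3.94 CPM in controls, and Otx2 at 71.4 ± 1.61 CPM in mutants against 43.1 ± 7.21 CPM in controls. En1 was at 17.0 ± 2.13 CPM in mutants against 10.7 ± 0.525 CPM in controls, and Pou4f1 at 75.2 ± 12.2 CPM in mutants against 35.8 ± 7.26 CPM in controls. The summed level of this list was 292 to 337 CPM in mutants and 164 to 215 CPM in controls, and mutant 260-1, with 292 CPM, was on the high side here, although its Atoh1 and Skor2 were low. The 15 Hox genes had a median of 0.29 and no call by edgeR or DESeq2 in all 8 libraries, with no unadjusted p under 0.05 in edgeR. The smallest p belonged to Hoxb7, Hoxb6, Hoxb8 and Hoxb2, with SEs between 1.67 and 2.15 on the log2 scale. Without the 2 libraries 11 of the 15 were called higher, with a median of 0.89, where 5.64% of all genes tested were called higher. The 2 libraries were set aside on the levels of these same 15 genes, so this count is not an independent test.

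**Figure D5:**
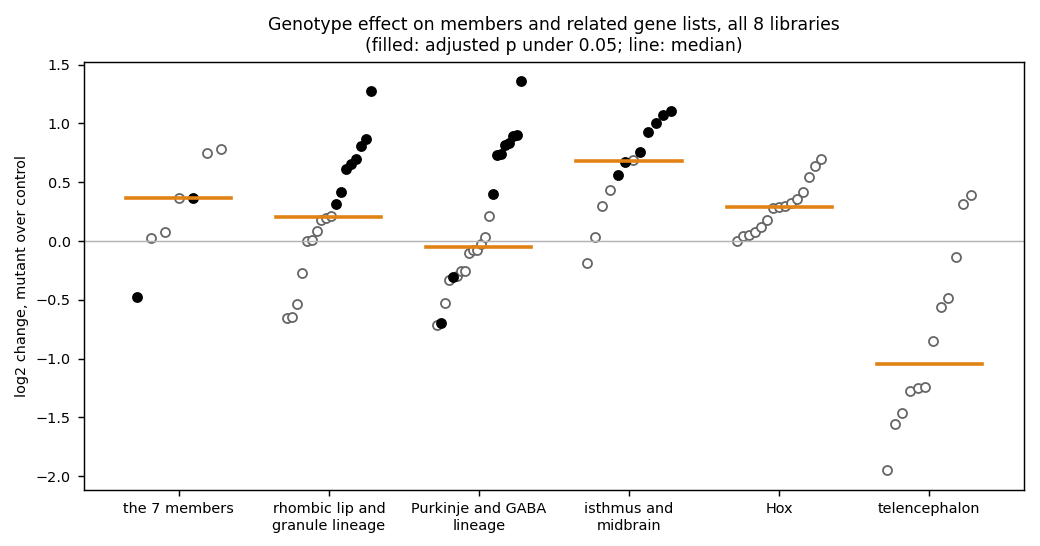
Log2 change in mutants over controls in all 8 libraries for the 7 members and for related lists, 1 point per tested gene, filled where the adjusted p passed the threshold, with the list median as a line. The isthmus and midbrain list has the highest median (0.68), and the telencephalon list the lowest (-1.04).

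The gene nearest to each member in its profile over the 8 libraries was found by the root mean square difference of centred log2 CPM, over 14529 or 14530 candidate genes. Nearest to Atoh1 were Mab21l2 (0.11), Col14a1 (0.13) and Lmx1b (0.15), where the median candidate was at 0.68. Nearest to Skor2 were Tfap2a, Slc30a3 and Ebf3 (each 0.17), and nearest to Barhl1 were Sh3yl1 (0.06), Igfbp7 (0.06) and Tfpi (0.07). The nearest to Zic1 were Oprl1 (0.04), Gprasp2 (0.06) and its paralog Zic2 (0.06). Ptf1a had Hist2h2aa2, Bmf and Ripk3 as neighbours (0.17 to 0.18), Car8 had Gm8281, Slc13a3 and Baalc (0.17 to 0.21), and Calb1 had Gm10767, Gabrq and Gm11960 (0.08 to 0.09). Among the members themselves, Barhl1 and Zic1 were the closest pair at 0.20 and Atoh1 and Skor2 differed by 0.30, while Ptf1a and Car8 were farthest apart at 1.05. Genes that vary little lie close together by this measure. The root mean square spread of a gene around its own mean was 0.16 for Zic1 and 0.26 for Barhl1, against 0.66 for Atoh1 and 0.58 for Skor2. The distance of 0.20 thus exceeds the spread of Zic1 itself, while 0.30 is below the spreads of both Atoh1 and Skor2.

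Tissues beside the brain that use some of these genes were also measured. Markers of the eye, where Ptf1a is active in the retina, summed over 6 genes to 9.95 to 18 CPM for mutants and 10.5 to 14.2 CPM for controls. Markers of the inner ear, whose hair cells express Atoh1 and Barhl1, summed over 5 genes to 37.9 to 51.0 CPM for mutants and 50.1 to 63.6 CPM for controls, and Otof and Myo7a, 2 of the 4 tested, were lower in mutants. Markers of meninges and blood summed over 9 genes to 845 to 1444 CPM for mutants and 825 to 1065 CPM for controls, highest in mutant 303-2. Lum and Pecam1, 2 of the 9, were called higher in mutants, where 10.9% of all tested genes were. None of these markers was at 0 in any library, but Gfi1 of the ear and Tyr of the eye did not pass the filter on low counts. Gfi1 averaged 0.0772 CPM in mutants and 0.0539 CPM in controls, and Tyr 0.132 and 0.128 CPM. The part of these markers in the results was not tested.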

How the data were processed

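Total RNA of embryonic brain was sequenced after library preparation with a TruSeq RNA kit, per the labels' protocols. The kit is unstranded, so sense and antisense reads were not separated. The tools TopHat2 (2.0.9), edgeR (3.4.2) and HTSeq (0.5.4p5) and the builds GRCm38 and mm10 are listed, per the submitters' processing notes, with no role given. The deposited values are expected counts without normalisation by the authors, of which 66.0% to 68.9% per library were whole numbers. They were rounded to whole numbers before testing, while CPM used the values as deposited. Each of the 8 columns matched 1 sample title. Identifiers were matched to GENCODE M21 for 34652 of 34866 rows.

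Genes were filtered with filterByExpr at a minimum count of 10 and scaled with TMM factors in edgeR 4.0.16 (R 4.3.3). The quasi-likelihood test, with robust dispersions and with stage and genotype in the model, was run on all genes that passed, and a Benjamini-Hochberg adjusted p under 0.05 was a call. SEs are the log2 change divided by the square root of the test's F. Stage was read from the same model and the dependence on stage from an added interaction term. Log2 CPM used a prior count of 2. P-values measure the spread between embryos.

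The members, the gene lists and the alternatives were chosen with earlier results of these data known, including which libraries have few or no Hox reads (median under 1 CPM). The genes named by a set rule were the 7 members, the 4 of smallest p of each related list and the 3 nearest genes of each member with a mean of at least 1 CPM. Some genes of the other lists are not reported here. Alternatives were RLE and upper quartile factors, other filters, DESeq2 1.42.0, other covariates, subsets of libraries, a transcript length offset and single libraries left out.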

Additional observations from a re-analysis of the deposited data

How the results depend on the processing

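Over all genes, 3576 were called for genotype, 565 for stage and 18 for the interaction. The genotype count was 1478 without the stage covariate, 1518 in the E14.5 libraries and 1970 in the 6 libraries with Hox reads. Leaving out single libraries gave 1317 to 4984 genotype calls, with 2098 without mutant 260-1, 1377 without mutant 303-2, 1861 without control 260-2, 1317 without control 195-2 and 1591 without control 303-3. The stage count was 341 with upper quartile factors, 961 without a filter on low counts, 2364 with DESeq2, 911 with the length offset and 28 in the 6 libraries. Leaving out single libraries gave 0 to 1419 stage calls by edgeR. It was 0 without controls 260-3, 195-2 or 303-3, where 4100, 3248 and 3475 genes had an unadjusted p under 0.05, and DESeq2 was not run on those sets. It was 20 without mutant 260-1, 10 without control 260-2, 1322 without mutant 195-3 and 1419 without control 195-6. The interaction count was 156 without a filter and 242 with DESeq2, and 6 to 1051 with single libraries left out (6 without control 260-2, 121 without mutant 195-3, 80 without control 195-6 and 1051 without mutant 303-2). It could not be fitted without mutant 260-1 or in the 6 libraries, which hold no E13.5 mutant. The causes of these moves were not tested. With upper quartile factors 1240 genes were higher and 2090 lower for genotype, against 1885 and 1691 with TMM factors.

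For the 7 genes, no call changed direction under any alternative. Beyond the losses given for Barhl1 and Car8, those of Car8 in the E14.5 libraries (adjusted p = 0.110) and of Barhl1 there (0.0568) were the remaining ones for genotype outside the 6-library set. The Skor2 interaction passed without a filter (0.000649) and without mutant 195-3 (0.00966), mutant 303-2 (0.00390) or control 195-6 (0.0341), and that of Zic1 without mutant 303-2 (0.0270). Ptf1a was too low for the filter of at least 1 CPM in 3 libraries. With a prior count of 0.5, Vgll3 replaced Lmx1b among the nearest genes of Atoh1. With the litter number as a replicate block in place of stage, 2698 genes were called for genotype and 13 for the interaction, and the same 2 members, Barhl1 (0.0343) and Car8 (0.0367), were called. The numbers were not taken as pairing the samples, since mutant and control deviations from their group means correlated over genes at 0.20 in litter 260, 0.15 in litter 303 and 0.03 in litter 195, and mutant 195-3 correlated best with the control of litter 303. Depth limits Ptf1a, with 7 to 22 counts a library.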
